A study of Salmo salar with 9 samples.

Results

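Collagens, laminins and the other structural proteins of the extracellular matrix were followed in the head kidney, the main blood-forming and immune organ of fish. Of 87600 contigs that the authors assembled de novo from the reads, 168 had a database description naming a collagen chain, a laminin subunit, nidogen, perlecan, decorin, biglycan, lumican, a fibulin, a fibrillin, a tenascin, periostin, SPARC or versican. The 165 of these that held at least 20 counts over the 9 fish are described here. They fell on 44 distinct proteins, and 137 were named by a protein match and 28 by a nucleotide match. A contig is a piece of an assembled transcript, so that the 12 contigs of COL6A3 or the 11 of HSPG2 are not separate genes, and most names come from another species than salmon.

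Atlantic salmon (Salmo salar) were fed for 42 days. The control feed was based on fishmeal (FMC), SW1 contained 10% of the kelp Laminaria digitata, and SW2 contained as much of the commercial seaweed blend Oceanfeed. Every fish, controls included, was challenged with lipopolysaccharide (LPS, 6 mg per kg), and the head kidney was taken 68 to 70 h after it. There were 3 fish per diet and 1 per tank, and no unchallenged fish is among them, so that a response to LPS is not measured here. The question was whether a diet changed the matrix transcripts beyond the differences among fish.

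The fibrillar collagens counted here were I, V, XI and XXVII. Collagen I forms the tensile fibres of connective tissue and is made mainly by fibroblasts. Collagen IV, laminins, nidogen and perlecan build the basement membrane, the thin sheet under endothelium, epithelium and around smooth muscle, while collagen VI forms beaded filaments beside it. SPARC, tenascins, periostin and the small proteoglycans decorin and lumican bind these scaffolds and tune their assembly and the attachment of cells. In the head kidney such proteins hold the sinusoids, vessels and stroma between which blood cells mature.

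De novo counts per fish summed to 8259299 to 12228633. Levels are in CPM (counts per 1e6 counts of the fish's library, TMM-scaled). Contig lengths are not used here, so levels of different contigs are not ranked against each other. The first principal component of all contigs set FMC fish 2 and SW1 fish 1 apart (164.6 and 132.7, against -78.15 to -1.693 in the remaining fish, for 28.26% of the variance). Some results that rest on them are also given without 1 or both of them, and the others only with them. One contig took 16.5% of the counts of SW2 fish 1. Of the marker lists, the 12 contigs of red blood cells summed to 30396 CPM in FMC fish 2 and to 2049 to 7459 CPM in the other fish, and none of the cartilage and bone markers (aggrecan, osteocalcin, bone sialoprotein, cartilage oligomeric matrix protein) was found. In a bulk sample, fewer cells of a type and less RNA per cell cannot be told apart.

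No matrix contig differed between diets at an adjusted p under 0.05 in edgeR's quasi-likelihood test in any of the 4 comparisons. In SW1 vs. FMC it was 0 of 164 contigs tested (0.00343% of all contigs passed), and in SW2 vs. FMC 0 of 165 (0% of all contigs). The seaweed diets vs. FMC gave 0 of 165 (0% of all contigs) and SW2 vs. SW1 0 of 165 (0.00114% of all contigs). The smallest adjusted p of a matrix contig was 0.742, for a periostin contig in SW2 vs. SW1. The differences described below are therefore levels in fish and fitted changes that did not pass, read beside the shares over all contigs.

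Fish of FMC and of SW1 were spread widely and those of SW2 less. Among the 59 contigs with at least 200 counts and a count in every fish, the median ratio of the highest to the lowest fish was 1.78 within FMC, 2.05 within SW1 and 1.29 within SW2, while the median ratio of the highest to the lowest diet mean was 1.29. A mean of 3 fish varies less than a single fish, so these ratios are not on an equal footing. The ratio within FMC exceeded that of the diet means in 49 of these contigs, the ratio within SW1 in 52 and the ratio within SW2 in 28. SW1 was the widest diet in 31, FMC in 22 and SW2 in 6. Over all 165 contigs, SW1 fish 1 was the highest fish in 35, SW2 fish 3 in 30 and FMC fish 2 in 27, and SW1 fish 2 was the lowest in 56. The sum of the 165 contigs was 1413 CPM in FMC fish 2 and 1328 in SW1 fish 1. It was 900 and 955 in the other FMC fish, 940 and 937 in the other SW1 fish and 1084 to 1136 in SW2. The ratios per contig were not computed without FMC fish 2 and SW1 fish 1.

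**Figure D1:**
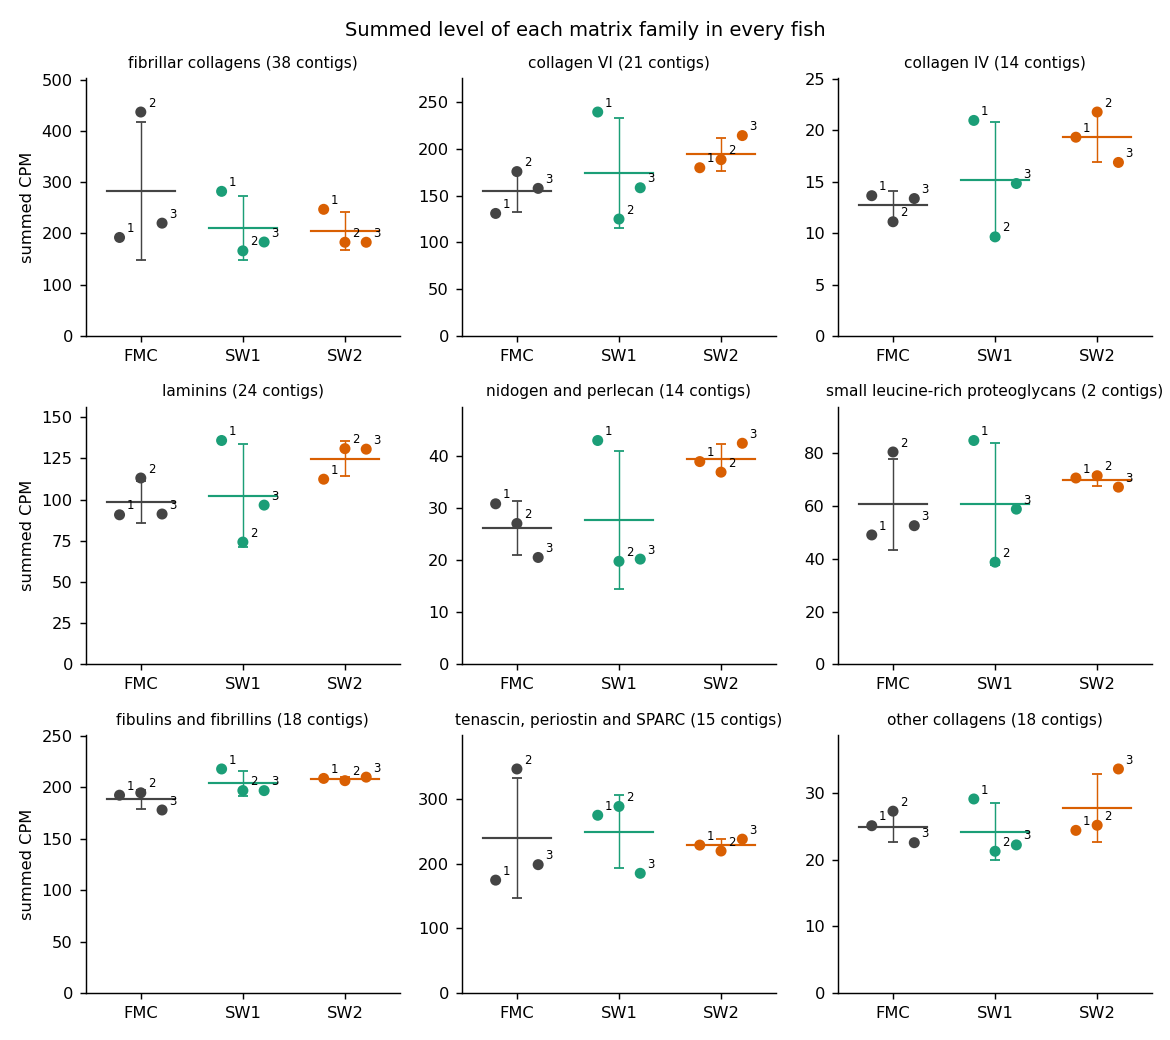
Summed CPM (vertical axes, from 0) of the contigs of 9 matrix families in FMC, SW1 and SW2 (horizontal axes); each point is 1 fish with its number, the line is the mean and the bar the SD of 3 fish. FMC fish 2 is at 437 for fibrillar collagens against 166 to 282 elsewhere, and all SW2 fish are above all FMC fish for collagen IV, collagen VI, nidogen and perlecan, and fibulins and fibrillins.

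Collagen I, the main fibre-forming collagen, was highest in 1 control fish. The 8 contigs of COL1A1, the alpha-1 chain, summed to 102, 252 and 119.9 CPM in FMC, 137, 89.7 and 87.0 in SW1 and 130.2, 77.9 and 86.6 in SW2. The 5 contigs of COL1A2, the alpha-2 chain, summed to 68.3, 158 and 79.1 CPM in FMC, 119, 60.4 and 73.7 in SW1 and 91.9, 81.4 and 73.8 in SW2. Both chains were highest in FMC fish 2, and the ranges of the 3 diets overlapped. Of the 13 contigs of collagen I, 10 were highest in FMC fish 2.

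The COL1A1 contig 8381, whose best match is a newt protein, had 27.8, 124 and 49.2 CPM in FMC, 58.6, 35.3 and 32.2 in SW1 and 40.5, 26.9 and 31.6 in SW2. FMC fish 2 was far above every other fish, while FMC fish 1 was lower than all fish but SW2 fish 2. The log2 fold change in seaweed diets vs. FMC was -0.85 (SE 0.372, adjusted p = 1.0) and was -0.05 without FMC fish 2. The COL1A2 contig 44450 had 2.08, 7.28 and 2.58 CPM in FMC, 2.20, 1.47 and 2.35 in SW1 and 1.246, 1.5995 and 0.803 in SW2. All SW2 fish were below all FMC fish here, and the ratio of the highest to the lowest fish, 9.07, was the widest of any matrix contig with at least 200 counts. Its log2 fold change in SW2 vs. FMC was -1.69 (SE 0.508, adjusted p = 0.816), and -0.92 without FMC fish 2. In seaweed diets vs. FMC it was -1.32 (SE 0.391, adjusted p = 1.0), and -0.55 without that fish.

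The contigs COL1A1 40262 and COL1A1 37648 had the next widest ranges, 8.02-fold and 6.62-fold. Contig 40262 had 3.57, 28.7 and 6.95 CPM in FMC, 8.92, 8.56 and 5.66 in SW1 and 5.40, 4.27 and 5.62 in SW2. FMC fish 2 was the only fish above 8.92 CPM, and FMC fish 1 was the lowest of all. The log2 fold change in seaweed diets vs. FMC was -1.05 (SE 0.460, adjusted p = 1.0) and turned to 0.27 without FMC fish 2. Contig 37648 had 8.47, 22.999 and 7.18 CPM in FMC, 14.004, 3.48 and 5.14 in SW1 and 9.97, 8.85 and 9.03 in SW2, so FMC fish 2 and SW1 fish 1 were the highest. The collagen I contig with the most counts, COL1A2 5942, had 46.4, 105 and 47.3 CPM in FMC, 85.3, 30.3 and 43.7 in SW1 and 61.6, 54.5 and 50.3 in SW2, with the same 2 fish highest and a log2 fold change of -0.26 (SE 0.313, adjusted p = 0.948) in SW2 vs. FMC.

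Over the 38 fibrillar collagen contigs the sum was 192, 437 and 220.1 CPM in FMC, 282, 166 and 183 in SW1 and 247, 183 and 183 in SW2. The mean of SW2 was 0.721 times that of FMC, and 0.991 times without FMC fish 2. The red blood cell markers were highest in the same fish, as were the 8 contigs of thrombocyte markers (140.7 CPM, against 57.6 to 81.8 in the other fish), and their part in this difference and in SPARC was not tested. Of collagen V, which sets fibril diameter, the 9 COL5A1 contigs summed to 7.85 to 8.44 CPM in FMC, 6.15 to 9.95 in SW1 and 9.34 to 10.1 in SW2, with no FMC fish apart. The 7 COL5A2 contigs summed to 4.32, 9.48 and 5.61 CPM in FMC, 6.73, 4.55 and 4.70 in SW1 and 7.47, 7.25 and 5.92 in SW2, highest in FMC fish 2 as collagen I was. COL11A1, a minor fibril chain known best from cartilage, had 1.33, 0.693 and 0.785 CPM in FMC and 0.623, 0.640 and 0.502 in SW2, on a single contig.

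SPARC, a calcium-binding glycoprotein that binds collagen and is made by stromal and endothelial cells, was likewise spread widely among control fish. Contig 20487, the matrix contig with the most counts, had 62.4, 176 and 83.6 CPM in FMC, 129, 132 and 76.3 in SW1 and 95.3, 96.8 and 103 in SW2. FMC held both the lowest and the highest fish, and the diets overlapped; the log2 fold change was 0.06 (SE 0.418, adjusted p = 1.0) in SW1 vs. FMC and -0.12 (SE 0.333, adjusted p = 0.979) in SW2 vs. FMC. The mean and SD were 107 ± 60.4 CPM in FMC, 112 ± 31.4 in SW1 and 98.4 ± 4.10 in SW2 (n = 3 each).

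Neighbouring contigs of a single protein went apart in FMC fish 2 and SW1 fish 1. In 8 pairs with at least 200 counts each, a contig named by a salmon nucleotide match is followed in number by a contig of the same protein named by a protein match. For SPARC, contig 20486 had 11.4, 4.05 and 10.8 CPM in FMC, 4.74, 12.97 and 10.2 in SW1 and 15.2, 12.5 and 11.2 in SW2, lowest in the 2 fish that stood apart, while its neighbour 20487 was at 176 and 129 CPM in them. The log2 ratio of 20487 over 20486 was 5.44 in FMC fish 2 and 4.77 in SW1 fish 1, and 2.45 to 3.35 in the other fish.

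COL1A1 was alike in the ratio but not in the level of the nucleotide-matched contig. Contig 8380 had 46.9, 19.4 and 33.8 CPM in FMC, 23.5, 21.7 and 23.3 in SW1 and 49.4, 18.1 and 19.4 in SW2. It was lowest in SW2 fish 2. The log2 ratio of 8381 over 8380 was 2.68 in FMC fish 2, 1.32 in SW1 fish 1 and -0.75 to 0.71 elsewhere. For COL1A2 contigs 21734 over 21733 it was 1.74 and 1.30 in these fish against -0.72 to 0.24. In 7 of the 8 pairs, the ratio farthest from the pair's own median was in FMC fish 2 or SW1 fish 1. Among 1526 such pairs of other proteins it was in 43.8%, and the median ratio of those pairs in the 2 fish (0.72 and 0.63) lay within the range of the other fish (0.62 to 1.00). How the reads of a fish were divided between neighbouring contigs was not tested, so that a level of collagen I or SPARC depends on the contig chosen.

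**Figure D2:**
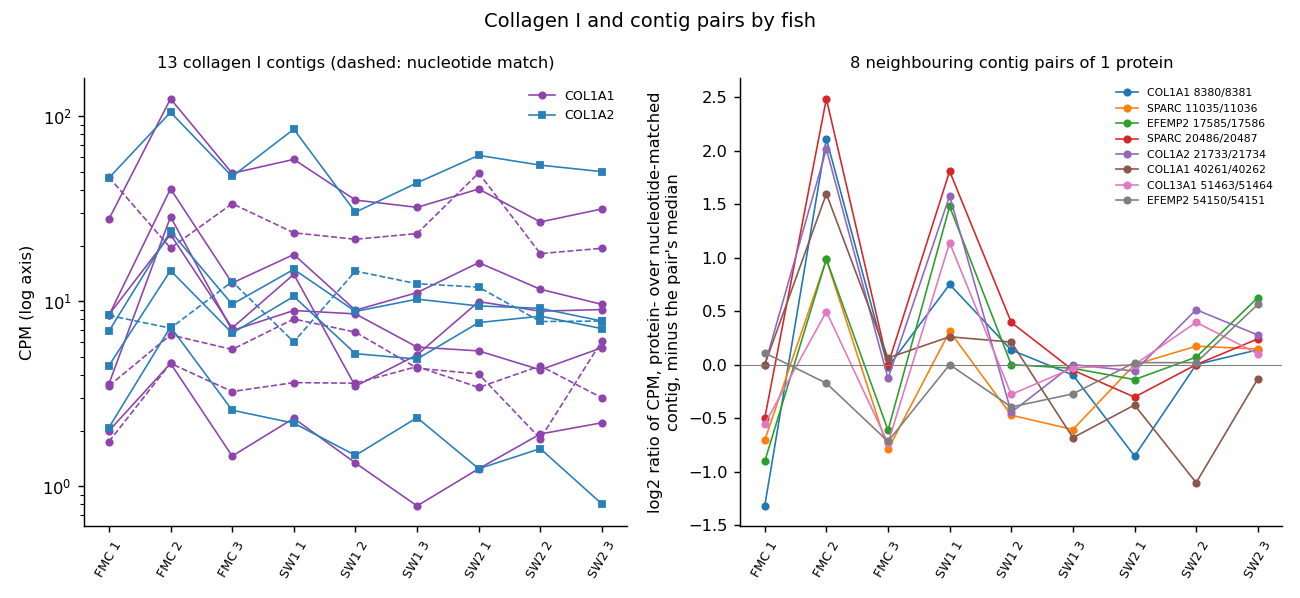
Left, CPM on a log axis of the 13 collagen I contigs in each of the 9 fish (horizontal axis; colours mark COL1A1 and COL1A2, dashed lines nucleotide-matched contigs, lines only join the values of a contig). Right, log2 ratio of the protein-matched over the nucleotide-matched contig of 8 neighbouring pairs, minus the pair's median. FMC fish 2 is the highest fish in 10 of 13 collagen I contigs and, with SW1 fish 1, farthest from the median in 7 of 8 pairs.

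Basement membrane contigs had a different order of fish: all SW2 fish were at or above the level of most FMC fish. SW1 fish reached from the level of FMC or below to that of SW2. In SW2 vs. FMC, 15 matrix contigs of 165 (9.09%) were higher at an unadjusted p under 0.05, against 2.39% of all 87309 contigs tested, and 5 (3.03%) were lower, against 3.63%. The 15 were 4 contigs of HSPG2, 2 of LAMC1, 1 of LAMB1, 2 of COL4A1, 1 of COL4A2, and 1 each of COL5A1, COL6A4, COL12A1, TNR and TNXB. The median log2 fold change of the matrix contigs was 0.30 and that of all contigs 0.00, with 109 matrix contigs above 0. Over the 95 matrix contigs with at least 10 counts in 3 fish alone, the median was 0.12. In 27 matrix contigs (16.4%) all SW2 fish were above all FMC fish, against 5.69% of all contigs, and in 4 (2.42%) all were below, against 6.03%. Contigs of a protein share a transcript, so these counts hold fewer independent values than contigs. Without FMC fish 2, 26 contigs were higher (15.9%, against 4.04% of all contigs in that fit) and 2 lower (1.22%, against 3.86%). Without SW2 fish 3, 8 were higher (4.88%, against 1.58%) and 2 lower (1.22%, against 3.74%).

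**Figure D3:**
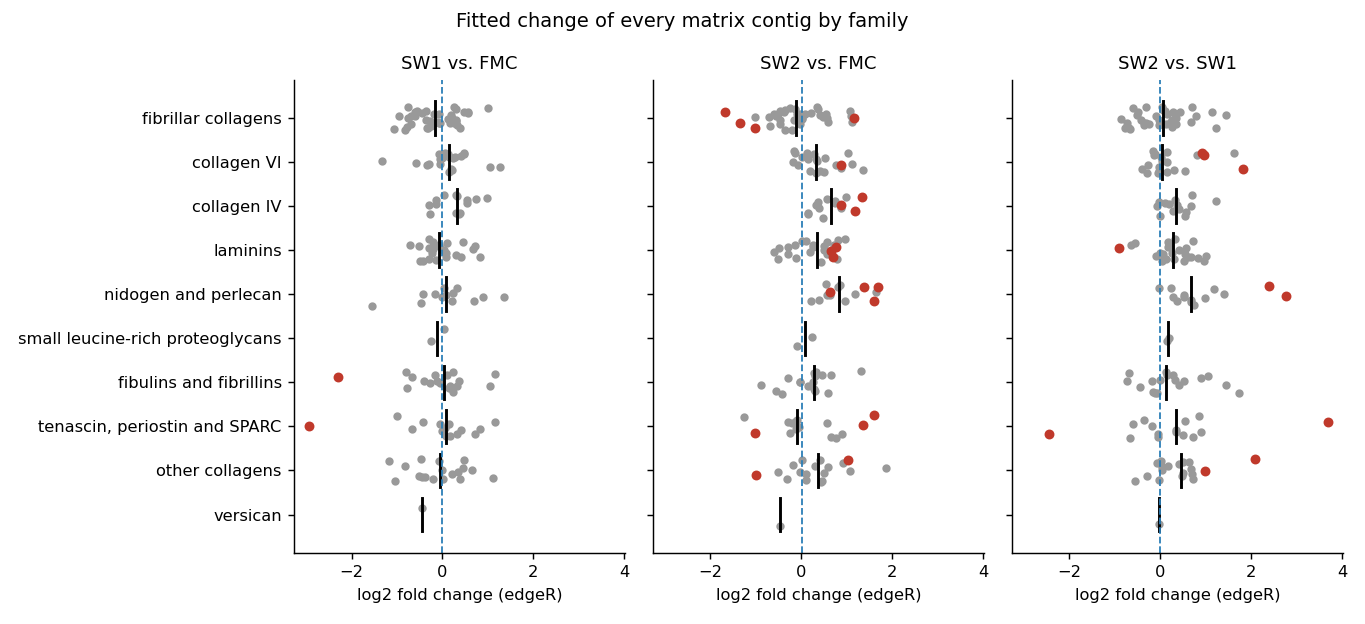
Log2 fold change from edgeR (horizontal axes) of every matrix contig, by family (vertical axis), in SW1 vs. FMC, SW2 vs. FMC and SW2 vs. SW1; red points have an unadjusted p under 0.05, black bars are family medians and the dashed line is the median of all contigs. No contig has an adjusted p under 0.05; in SW2 vs. FMC all 14 collagen IV contigs and all 14 of nidogen and perlecan are above 0.

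Perlecan (HSPG2), the large heparan sulfate proteoglycan of basement membranes, was the member with the most such contigs. Its 11 contigs summed to 17.8, 10.4 and 8.41 CPM in FMC, 20.7, 11.2 and 8.80 in SW1 and 21.6, 20.4 and 23.3 in SW2. All SW2 fish were above all FMC fish and above SW1 fish 2 and 3, and SW1 fish 1 lay among them. Contig 43251, which held the most counts of its family, had 8.31, 6.24 and 5.27 CPM in FMC, 11.1, 5.08 and 4.97 in SW1 and 10.8, 9.28 and 10.7 in SW2. Its log2 fold change in SW2 vs. FMC was 0.63 (SE 0.252, adjusted p = 0.822).

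Contig 79817 of perlecan had 0.914, 0.578 and 0.561 CPM in FMC, 1.37, 0.936 and 1.05 in SW1 and 1.14, 1.81 and 2.51 in SW2. Every fish of both seaweed diets was above every FMC fish in this contig, at few counts (113 in all), which held for no other matrix contig. The reverse held for 1, the COL12A1 contig 75366, with 64 counts. The share of all contigs with either order was not counted, so neither is read as a result about the matrix. The log2 fold change of contig 79817 was 1.37 (SE 0.442, adjusted p = 0.816) in SW2 vs. FMC and 1.03 (SE 0.396, adjusted p = 1.0) in seaweed diets vs. FMC. Nidogen-1 (NID1), which links laminin to collagen IV, had a sum over 3 contigs of 13.045, 16.6 and 12.1 CPM in FMC, 22.2, 8.56 and 11.4 in SW1 and 17.3, 16.5 and 19.2 in SW2, with FMC fish 2 among the SW2 fish. Nidogen and perlecan together were at 26.1 ± 5.21 CPM in FMC, 27.7 ± 13.3 in SW1 and 39.4 ± 2.81 in SW2 (SD, n = 3 each), a ratio of 1.51 between SW2 and FMC.

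Collagen IV, the network-forming collagen of the basement membrane, had 14 contigs, all above 0 in SW2 vs. FMC with a median of 0.65, and 3 of them at an unadjusted p under 0.05. The family sum was 13.6, 11.1 and 13.3 CPM in FMC, 20.9, 9.63 and 14.8 in SW1 and 19.3, 21.8 and 16.9 in SW2, so that SW2 lay above FMC and SW1 on both sides. COL4A1 summed to 3.00 to 4.32 CPM in FMC and to 5.42 to 6.23 in SW2, and COL4A2 to 8.09 to 9.76 and 11.4 to 15.9. The contig of the family with the most counts, COL4A2 38296, had 1.4955, 1.39 and 2.47 CPM in FMC, 3.09, 0.668 and 2.96 in SW1 and 2.49, 4.27 and 2.21 in SW2. Here FMC fish 3 was above SW2 fish 3 and the diets overlapped.

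Laminins, the cross-shaped trimers that cells hold on to, showed the same order for the sums of the gamma-1 and beta-1 chains. LAMC1, the gamma chain shared by most laminins, summed to 18.03, 14.8 and 15.6 CPM in FMC, 27.05, 10.6 and 17.3 in SW1 and 24.3, 27.8 and 27.7 in SW2. LAMC1 contig 41444 had 9.14, 8.32 and 7.96 CPM in FMC, 12.9, 4.01 and 8.97 in SW1 and 13.4, 15.4 and 14.3 in SW2. All SW2 fish were above all other fish in this contig, with a log2 fold change in SW2 vs. FMC of 0.76 (SE 0.220, adjusted p = 0.816) that lay between 0.71 and 0.82 when any of the 6 fish was left out. LAMB1 summed to 26.5, 35.7 and 27.8 CPM in FMC, 41.3, 24.6 and 30.5 in SW1 and 36.9, 44.1 and 38.6 in SW2.

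Of the alpha chains, LAMA5 also had all SW2 fish above all FMC fish. Its single contig was at 2.58 to 2.91 CPM in FMC, 1.34 to 3.91 in SW1 and 3.01 to 4.72 in SW2. The sums of LAMA2, LAMA3 and LAMA4 overlapped between SW2 and FMC, as did those of the beta chains LAMB2 and LAMB4. LAMA4 contig 13218, from the alpha-4 chain typical of vessel walls in mammals, had 21.7, 34.8 and 23.8 CPM in FMC, 39.7, 21.3 and 24.5 in SW1 and 27.2, 32.6 and 36.3 in SW2. FMC fish 2 and SW1 fish 1 were among the highest, and no diet stood apart. LAMA3 contig 51866, from an alpha chain of epithelial laminins, had 1.41, 1.39 and 1.91 CPM in FMC and 1.10, 0.535 and 1.13 in SW1, all below FMC, with a log2 fold change of -0.72 (SE 0.440, adjusted p = 1.0) in SW1 vs. FMC. The whole laminin family summed to 98.3 ± 12.7 CPM in FMC, 102 ± 31.2 in SW1 and 125 ± 10.6 in SW2 (SD, n = 3 each), with FMC fish 2 above SW2 fish 1.

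Endothelial markers, by a small margin, and stromal cell-derived factor 1 were higher in all SW2 fish than in all FMC fish. The other stroma markers and those of smooth muscle overlapped between diets. The 58 contigs of markers of endothelium, the cells that lie on the basement membrane, summed to 191 to 267 CPM in FMC, 218 to 329 in SW1 and 273 to 317 in SW2. The 13 of fibroblasts and stroma summed to 53.8 to 90.8 CPM in FMC, 44.9 to 109 in SW1 and 98.2 to 124 in SW2. SW1 fish 1 was the highest fish of all in the endothelial sum, as it was in nidogen and perlecan, and SW2 lay above FMC in both lists. Of the counts of the fibroblast and stroma list, 90.8% were on 4 contigs of stromal cell-derived factor 1, a chemokine, and its other 9 contigs overlapped, at 5.09 to 10.97 CPM in FMC and 7.32 to 10.8 in SW2. The 28 contigs of smooth muscle and pericytes summed to 1168 to 1399 CPM in FMC, 1312 to 1764 in SW1 and 1212 to 1499 in SW2, and overlapped. Their highest fish was SW1 fish 2, the lowest fish in the sums of collagen IV, laminins, and nidogen and perlecan. The 3 contigs of chromaffin cell markers also had SW2 above FMC, at 1.00 to 2.39 against 0.166 to 0.809 CPM. All 3 were of tyrosine 3-monooxygenase and held 96 counts in all. Dopamine beta-hydroxylase and chromogranin, the other markers of that list, were not found at 20 counts or more. The lists of interrenal cells, kidney tubule, red and white blood cells and thrombocytes overlapped between SW2 and FMC. Among the defining markers of smooth muscle and stroma, desmin, Thy-1 and fibroblast growth factor 7 were not found at 20 counts or more. The part of these cells in the matrix levels was not tested.

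**Figure D4:**
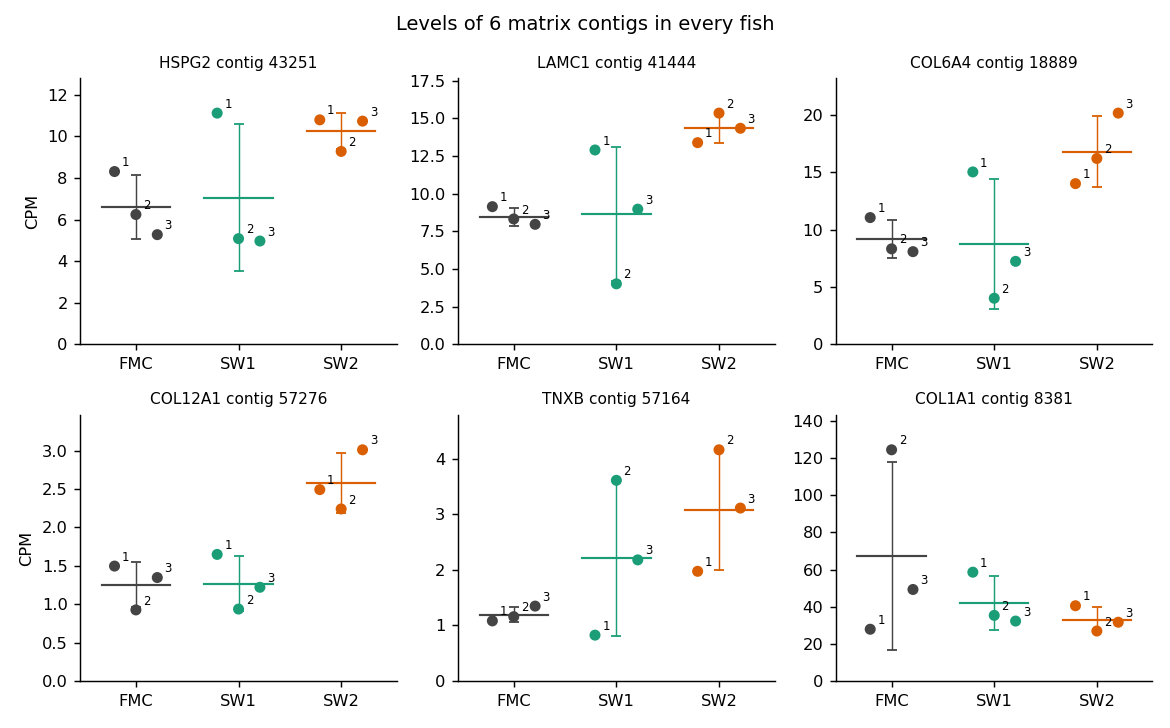
CPM (vertical axes, from 0) of perlecan 43251, LAMC1 41444, COL6A4 18889, COL12A1 57276, TNXB 57164 and COL1A1 8381 in FMC, SW1 and SW2; points are fish with their numbers, lines means and bars SD (n = 3). In the first 5 contigs all SW2 fish are above all FMC fish, while COL1A1 8381 is highest in FMC fish 2 at 124.

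Collagen VI links the basement membrane to the fibres around it. The COL6A6 contig 4652, from a chain found beside the alpha-1 and alpha-2 chains, had 54.8, 61.7 and 84.5 CPM in FMC, 99.1, 63.4 and 67.1 in SW1 and 78.1, 81.1 and 95.3 in SW2. FMC fish 3 lay within SW2 and the log2 fold change in SW2 vs. FMC was 0.34 (SE 0.230, adjusted p = 0.893). COL6A4 contig 18889, matched to the mouse alpha-4 chain, had 11.1, 8.32 and 8.08 CPM in FMC, 15.03, 4.01 and 7.23 in SW1 and 14.01, 16.2 and 20.2 in SW2.

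In COL6A4 18889 all SW2 fish were above all FMC fish, and SW1 ran from the lowest fish of all to a fish within SW2. Its log2 fold change was 0.87 (SE 0.247, adjusted p = 0.816) in SW2 vs. FMC and 0.92 (SE 0.382, adjusted p = 0.858) in SW2 vs. SW1. COL6A3 contig 83467, of 60 counts, had 0.166, 0.809 and 0.112 CPM in FMC and 0.892, 1.203 and 0.523 in SW1, with a log2 fold change of 1.26 (SE 0.721, adjusted p = 1.0) that was 2.48 without FMC fish 2. The family sum was 155 ± 22.5 CPM in FMC, 174 ± 58.8 in SW1 and 194 ± 17.9 in SW2 (SD, n = 3 each). In this sum all SW2 fish were above all FMC fish by a small margin (FMC fish 2 at 175.6, SW2 fish 1 at 179.7). Taken alone, COL6A1, COL6A2, COL6A3 and COL6A6 each overlapped between SW2 and FMC, and only COL6A4 did not.

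Of the other collagens, COL12A1 forms a collagen that decorates fibril surfaces. Contig 57276 had 1.4955, 0.925 and 1.35 CPM in FMC, 1.65, 0.936 and 1.22 in SW1 and 2.49, 2.24 and 3.01 in SW2. SW2 lay above both other diets, which were alike in range, and the log2 fold change was 1.02 (SE 0.340, adjusted p = 0.816) in SW2 vs. FMC and 0.98 (SE 0.356, adjusted p = 0.858) in SW2 vs. SW1. The 8 COL12A1 contigs together overlapped, at 6.51 to 9.22 CPM in FMC and 7.58 to 12.7 in SW2.

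COL7A1, the chain of anchoring fibrils under epithelia, had on contig 72419 2.41, 3.70 and 2.58 CPM in FMC, 5.70, 3.61 and 4.27 in SW1 and 3.74, 5.22 and 4.11 in SW2. FMC held the 2 lowest fish, and FMC fish 2 lay just under SW2 and above SW1 fish 2. The log2 fold change in seaweed diets vs. FMC was 0.63 (SE 0.276, adjusted p = 1.0), and in SW1 vs. FMC 0.65 (SE 0.351, adjusted p = 1.0). COL13A1 contig 51463, a collagen that spans the cell membrane, differed little, at 5.40, 3.47 and 5.38 CPM in FMC, 2.81, 6.55 and 4.97 in SW1 and 5.19, 4.05 and 5.22 in SW2, with FMC fish 2 and SW1 fish 1 the lowest fish.

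Decorin (DCN), a small proteoglycan that coats collagen fibrils, had a single contig, 13296, with 45.7, 69.0 and 45.9 CPM in FMC, 77.3, 36.4 and 51.0 in SW1 and 62.5, 66.1 and 60.7 in SW2. SW1 fish 1 and FMC fish 2 were the highest fish, and SW2 was narrow and within the range of both other diets. Lumican (LUM), of the same family, had 3.41, 11.6 and 6.73 CPM in FMC, 7.62, 2.41 and 7.84 in SW1 and 8.20, 5.44 and 6.52 in SW2. Versican (VCAN), a large chondroitin sulfate proteoglycan, had 36 counts in all on a contig with 0.134 to 0.673 CPM.

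Fibulins and fibrillins, the proteins of microfibrils and elastic fibres, varied least as a sum, with a ratio of 1.22 between the highest and the lowest fish. Singly, this ratio was 1.31 for EFEMP2, 1.44 for FBN1, 1.98 for FBLN1 and 2.43 for EFEMP1. The family sum was 188 ± 9.06 CPM in FMC, 204 ± 12.2 in SW1 and 208 ± 1.75 in SW2 (SD, n = 3 each). In this sum all fish of both seaweed diets were above all FMC fish by a small margin. SW1 and FMC overlapped in each of these proteins taken alone. Fibulin-1 (FBLN1) contig 2955 had 39.7, 55.1 and 57.9 CPM in FMC, 78.5, 52.5 and 60.9 in SW1 and 61.8, 69.95 and 60.3 in SW2. SW2 was above FMC and SW1 overlapped both, with a log2 fold change in SW2 vs. FMC of 0.33 (SE 0.223, adjusted p = 0.893). The 9 contigs of fibrillin-1 (FBN1) summed to 78.4 to 113 CPM in FMC, 89.5 to 94.8 in SW1 and 93.1 to 109 in SW2.

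Tenascins and periostin are matricellular proteins, known in mammals for their rise in remodelling tissue. Tenascin-X (TNXB), which spaces collagen fibrils, had on contig 57164 1.08, 1.16 and 1.35 CPM in FMC, 0.824, 3.61 and 2.18 in SW1 and 1.97, 4.16 and 3.11 in SW2. All SW2 fish and 2 of the SW1 fish were above FMC, while SW1 fish 1 was the lowest of all. The log2 fold change was 1.36 (SE 0.369, adjusted p = 0.816) in SW2 vs. FMC and 1.09 (SE 0.438, adjusted p = 1.0) in seaweed diets vs. FMC. The 4 contigs named tenascin-R (TNR), a tenascin known from the nervous system, did not go one way: their sum was 2.74 to 3.48 CPM in FMC and 2.67 to 3.31 in SW2, with 1 contig higher and 1 lower in SW2 at an unadjusted p under 0.05.

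SW1 vs. FMC gave few differences in the matrix. At an unadjusted p under 0.05, 0 of 164 contigs were higher, against 1.03% of all 87494 contigs, and 2 (1.22%) were lower, against 0.649%. The median log2 fold change was 0.02. Fish of the diets did not overlap in 1 contig that was higher (0.610%, against 2.92% of all contigs) and in 3 that were lower (1.83%, against 2.62%). The 2 lower contigs were FBN1 34836, with 14, 4 and 1 counts in the FMC fish and 3, 0 and 1 in the SW1 fish, and POSTN 68034 of periostin, with 5, 1 and 3 counts against 1, 0 and 0. They hold too few counts for the direction to be read from them. Without SW1 fish 1 the median became -0.25 and 7 contigs were lower (4.49%, against 1.77% of all contigs in that fit). Without both fish that stood apart, 4 were higher (2.74%, against 2.652%) and 11 lower (7.53%, against 1.91%).

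Among the other contigs with the smallest p in SW1 vs. FMC, those of collagen I rested on FMC fish 2. COL1A1 contig 66558 had 1.99, 4.62 and 1.46 CPM in FMC, 2.33, 1.34 and 0.784 in SW1 and 1.25, 1.92 and 2.21 in SW2. FMC fish 2 was the highest fish and the others overlapped. The log2 fold change was -0.83 (SE 0.523, adjusted p = 1.0), -0.21 without that fish and -0.53 without SW1 fish 3. For COL1A2 44450, described above, it was -0.96 (SE 0.489, adjusted p = 1.0), and -0.19 without it.

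SW2 vs. SW1, fitted with all 9 fish, had 8 contigs of 165 (4.85%) higher in SW2 at an unadjusted p under 0.05, against 2.05% of all 87598 contigs, and 2 (1.21%) lower, against 3.74%. The median log2 fold change was 0.20, with 110 contigs above 0. In 10 contigs (6.06%) all SW2 fish were above all SW1 fish, against 6.74% of all contigs, and in 2 (1.21%) below, against 6.9%. SW1 fish 1 lay within or above SW2 in most families, and without it 28 contigs were higher (16.97%, against 4.07% of all contigs in that fit) and the median was 0.55. Without SW2 fish 3, 4 were higher (2.42%, against 1.47%).

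Limma voom with quality weights, an alternative test that gives each library a weight, called 25 matrix contigs (15.2%) at an adjusted p under 0.05 in SW2 vs. SW1, 24 of them higher, against 7.03% of all contigs. Of these, 8 were of nidogen and perlecan, 5 of laminins, 4 of collagen VI and 3 of collagen IV, and 1 laminin contig was lower. The same test called 0 matrix contigs in each of the other 3 comparisons.

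The contigs with the smallest p in SW2 vs. SW1 included low ones. Perlecan contig 68447 had 8, 2 and 1 counts in FMC, 3, 0 and 1 in SW1 and 7, 6 and 6 in SW2, and perlecan contig 77331 had 5, 0 and 1, then 3, 0 and 0, then 6, 6 and 7. COL12A1 contig 73099 had 7, 2 and 3 counts in FMC, 5, 0 and 1 in SW1 and 8, 5 and 9 in SW2. POSTN 68034 had 4, 7 and 4 counts in SW2 and a single count in SW1. SW1 fish 2 had no count in any of these 4 contigs, and the SW2 fish were the highest or among the highest in each. For 77331 and POSTN 68034 the counts are given with no fold change, as SW1 held 3 counts or fewer. The 4 periostin contigs did not go one way. Contig 79046 had 20, 3 and 12 counts in SW1 and 5, 2 and 11 in SW2, and contig 79011 had 19, 0 and 4, then 1, 0 and 2. The periostin sum overlapped, at 0.668 to 3.02 CPM in SW1 and 1.14 to 2.21 in SW2.

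With both seaweed diets set against FMC, 4 contigs of 165 (2.42%) were higher at an unadjusted p under 0.05, against 1.39% of all contigs, and 3 (1.82%) were lower, against 1.98%. The higher ones were TNXB 57164, HSPG2 79817, COL7A1 72419 and a COL5A1 contig, and the lower ones were the collagen I contigs 44450, 8381 and 40262, which FMC fish 2 led. The median log2 fold change was 0.13, and -0.03 without SW1 fish 1.

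Genes that make and cut the matrix were counted on 145 further contigs. In SW2 vs. FMC, 25 of the 145 were higher at an unadjusted p under 0.05, against 2.39% of all contigs, and 1 was lower, against 3.63%. There were 0 at an adjusted p under 0.05, and the median log2 fold change was 0.27. In SW1 vs. FMC 0 of 144 were higher and 0 lower, against 1.03% and 0.649% of all contigs, with a median of 0.11. By group in SW2 vs. FMC, 10 of 61 contigs of synthesis and crosslinking were higher and 1 lower. Higher contigs were 8 of 33 of proteases, 4 of 10 of protease inhibitors, 3 of 30 of other matrix proteins and 0 of 11 of growth factors. These are contigs and not proteins: all 4 of the inhibitors were of TIMP2, and 5 of the 8 of proteases were of MMP9. The 10 of synthesis and crosslinking held several contigs each of P4HA2, BMP1 and LOXL3. In SW2 vs. SW1, 8 of the 145 were higher and 1 lower, against 2.05% and 3.74% of all contigs. In seaweed diets vs. FMC 6 of the 145 were higher and 0 lower, against 1.39% and 1.98%.

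TIMP2, an inhibitor of matrix metalloproteinases, had on contig 9047 272, 222 and 209.7 CPM in FMC, 208, 274 and 336 in SW1 and 322, 444 and 438 in SW2, with SW2 above FMC. TIMP2 contig 1564, which holds the most counts, had 945, 309 and 875 CPM in FMC, 269, 1159 and 867 in SW1 and 751, 709 and 618 in SW2, and overlapped. Of the 8 TIMP2 contigs, SW2 lay above FMC in 4 and overlapped in 4, while it lay above FMC in 5.69% of all contigs. MMP9, the gelatinase that cuts collagen IV and is stored in neutrophils, had on contig 3914 109 and 97.9 CPM in FMC fish 1 and 2, 67.2 in FMC fish 3, 122, 93.9 and 117 in SW1 and 148, 221 and 109 in SW2. SW2 fish 3 was above FMC by a small margin in this contig. Of the 8 MMP9 contigs, SW2 lay above FMC in 3 (against 5.69% of all contigs) and overlapped with it in 5. P4HA2, a prolyl hydroxylase that stabilises the collagen helix, had on contig 32483 1.99, 1.85 and 2.47 CPM in FMC, 3.64, 3.34 and 2.53 in SW1 and 3.32, 4.69 and 3.71 in SW2. Every seaweed fish was above every FMC fish there, an order whose share over all contigs was not counted. P4HA2 contigs differed: in 53668 SW2 lay above FMC, and in 65362 the 2 diets overlapped. In P4HA2 contig 81794 all SW2 fish (0.213 to 0.502 CPM) were below all SW1 fish (1.13 to 1.44). The adjusted p of TIMP2 9047, MMP9 3914 and P4HA2 32483 in SW2 vs. FMC was 0.816 each. Collagenase-3 (MMP13) contig 51 had 2641, 2285 and 1375 CPM in FMC, 2239, 2210 and 3787 in SW1 and 2530, 4227 and 2636 in SW2, and overlapped between diets.

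Among 20356 other contigs with a protein name and at least 200 counts, those closest in pattern over the 9 fish were looked up for the 3 matrix contigs with the most counts, by Pearson's r of log2 CPM, as a description. For SPARC 20487 the closest were contigs named tripeptidyl-peptidase 1 (r = 0.967), ABHD4 (r = 0.964) and type I iodothyronine deiodinase (r = 0.961). For COL6A6 4652 they were FAM83H (r = 0.979), sacsin (r = 0.947) and amyloid beta A4 protein (r = 0.942). For fibulin-1 2955 they were ARRDC3 (r = 0.971), ZFP36L1 (r = 0.957) and CEBPD (r = 0.948). The points are 9 libraries that share the TMM scaling, and 2 of them stood apart.

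Counted against the NCBI salmon cDNA sequences, a second count of the same reads, 14 matrix sequences held at least 20 counts, and 0 passed at an adjusted p under 0.05 in edgeR's test (smallest 0.861). At an unadjusted p under 0.05, 1 of the 14, of periostin, was higher in SW2 vs. FMC, against 2.59% of all NCBI sequences tested. The periostin sequence held 27 counts, with 2, 1 and 1 in FMC and 2, 5 and 8 in SW2. In the de novo periostin sum these diets overlapped (1.33 to 1.91 CPM in FMC, 1.14 to 2.21 in SW2). In seaweed diets vs. FMC 2 of the 14 were lower, against 1.78%, a COL1A1 and an FBLN1 sequence. The FBLN1 sequence held 31 counts, with 1.71, 2.21 and 2.50 CPM in FMC. It had 1.16, 0.921 and 0.654 CPM in SW1 and 1.24, 0.860 and 0.774 in SW2. Every seaweed fish was below every FMC fish there, while in the de novo FBLN1 contig SW2 was above FMC. The COL1A2 sequence had 259, 876 and 389 CPM in FMC, 549.7, 321 and 291 in SW1 and 357, 290.1 and 272 in SW2. FMC fish 2 and SW1 fish 1 were again the highest fish. The perlecan sequence had 4.09, 3.54 and 3.76 CPM in FMC, 3.49, 0.461 and 1.64 in SW1 and 7.05, 2.58 and 3.87 in SW2, on 80 counts, and there FMC and SW2 overlapped.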

How the data were processed

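Head kidney RNA of 9 fish was sequenced by the authors as 50-nucleotide reads. They aligned the reads of each fish to contigs assembled de novo and to NCBI salmon cDNA sequences with TopHat and counted them with HTSeq, and the deposited values are raw counts, a row for each contig and a column for each fish. The deposited fold changes and p-values of the authors' own tests, which rest on the same counts, were not used. Neither reference has genome coordinates. Salmon carry many duplicated genes, and reads of near-identical copies can be divided between contigs.

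TMM scaling and the tests were run with edgeR 4.0.16 under R 4.3.3. The quasi-likelihood test of edgeR was fitted to every contig whose counts reached 10 when summed over the fish compared, and p-values were adjusted over all of them (Benjamini-Hochberg). SW1 vs. FMC and SW2 vs. FMC used 6 fish, the other comparisons all 9. DESeq2 1.42.0 and limma 3.58.1 were alternatives. The SE is the log2 fold change over the square root of F. The fit of SW2 vs. FMC was also run on simulated counts. These had the same spread setting for every contig and no fish that stood apart, a simpler setting than these data. Families, marker lists and members were chosen with earlier results of these data known.

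Contigs named with values in every fish were the one with the most counts in each family, up to 6 with the smallest p in each comparison, and the 3 with the widest range among fish; sums per protein and the other contigs named, those of matrix-modifying genes included, were picked after their values were seen. Fish were separate animals from separate tanks, and no libraries of a diet agreed within counting error (chi-square divided by its degrees of freedom, 5.38 to 34.4).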

Additional observations from a re-analysis of the deposited data

How the results depend on the processing

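The count of matrix contigs at an adjusted p under 0.05 was 0 under every alternative run in each of the 4 comparisons (other size factors, other filters, DESeq2, limma voom with quality weights, each fish left out, both fish that stood apart left out, the replicate block, all 9 fish in the fit), except 25 with limma voom in SW2 vs. SW1. Of 347 alternative values of the contigs named by p, 339 kept direction and side, 6 passed the threshold (limma voom, SW2 vs. SW1) and 2 reversed, both COL1A1 contig 40262 in seaweed diets vs. FMC (-1.05): -1.50 to 0.27 with a fish left out and 0.21 without both fish that stood apart. The cause was not tested. Correlations of same-numbered fish were -0.249 to 0.135 and those of differently numbered fish -0.304 to 0.406. With 3 fish per diet these values cannot tell whether the numbers pair the fish. With the replicate block the count of matrix contigs at an adjusted p under 0.05 was 0 in each comparison.

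Counts at an unadjusted p under 0.05 moved more. With limma voom, 15 contigs were higher and 18 lower in SW1 vs. FMC (9.15% and 10.98%, against 8.96% and 8.98% of all contigs), 36 and 7 in SW2 vs. FMC (21.8% and 4.24%, against 8.43% and 9.16%), 25 and 12 in seaweed diets vs. FMC (15.2% and 7.27%, against 7.64% and 9.83%), and 48 and 8 in SW2 vs. SW1 (29.1% and 4.85%, against 13.1% and 12.7%). With a fish left out, 8 to 26 were higher in SW2 vs. FMC (4.88% to 15.9%, against 1.58% to 4.34% of all contigs). In seaweed diets vs. FMC 1 to 9 were higher (0.606% to 5.45%, against 1.09% to 2.27%). In SW2 vs. SW1 4 to 28 were higher (2.42% to 16.97%, against 1.32% to 4.07%). With both fish that stood apart left out, 35 were higher in SW2 vs. SW1 (21.2%, against 5.88%). With at least 10 counts in 3 fish, 2 of 105 were higher in SW2 vs. SW1 (1.90%, against 1.96% of all contigs in that fit).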
